A study of Homo sapiens with 6 samples.

Results

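TNF, LTA, LTB and LST1 are neighbours in the class III part of the major histocompatibility complex (MHC) on human chromosome 6. The peaks of 6 ATAC-seq libraries were searched for those overlapping any of these 4 genes, each widened by 10 kb on both sides, and 1 merged region of 56447 was found. In ATAC-seq the Tn5 transposase cuts accessible DNA and tags it with adapters, and reads pile up where chromatin is open. All libraries came from GM12878, an established human lymphoblastoid cell line made by immortalising B cells with Epstein-Barr virus. According to the labels, cells of all 6 libraries were fixed with 1% PFA, lysed with 0.05% Igepal and transposed for 30 min at 37 °C, and the reaction was stopped with 40 mM EDTA. The labels also give all 6 an inactivation of 10 min at 80 °C after reverse crosslinking. The methods of the study give this lysis, stop and inactivation for bulk libraries only in the workflow without purification. For the old buffer they name the normal ATAC-seq reaction. Lysis, stop, inactivation and reverse crosslinking thus cannot be told apart between these groups. Crosslinks were reversed overnight at 65 °C by 1 of 3 protocols with 2 replicate libraries each. The old buffer held SDS and was followed by DNA purification. The purified new buffer held no SDS and was also followed by purification. The unpurified new buffer held no SDS, and PCR was done directly in the reverse crosslinking mixture. All 3 groups are the same cell line, so the comparisons between them address the chemistry of the protocol and not a biological condition. Nothing in the labels says that replicates came from separate cultures, so the spread between them may be technical.

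TNF is a pro-inflammatory cytokine that is made as a membrane protein and released by proteolysis. LTA, lymphotoxin alpha, is secreted as a trimer that binds the TNF receptors, and together with LTB, lymphotoxin beta, it forms a membrane trimer that binds the lymphotoxin beta receptor and is needed for lymph node formation. LST1 is a leukocyte-specific transcript that encodes a small membrane adaptor. B cells and lymphoblastoid lines are known sources of TNF and lymphotoxin, and these cytokine genes are textbook targets of NF-kB, the transcription factor that their receptors also activate.

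In hg19, with genes from GENCODE, LTA lay on chromosome 6 from 31539831 to 31542101 (plus strand), TNF from 31543342 to 31546113 (plus strand), LTB from 31548302 to 31550299 (minus strand) and LST1 from 31553901 to 31556686 (plus strand). Widened by 10 kb, they spanned a single window from 31529831 to 31566686. The window also held NCR3, an activating receptor of natural killer cells, and the 5′ part of ENSG00000289406, a long non-coding RNA gene on the minus strand from 31528021 to 31540477. No peak touched the body of any of the 4 genes in any library. The only region in the window, chr6:31536280-31536707, was 428 bp long and lay in an intron of ENSG00000289406, upstream of LTA. It was called with the old buffer in both replicates and with the unpurified new buffer in both replicates, and with the purified new buffer in neither.

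The sequence of the region around its median summit is shown because it holds the only peak of the locus. The 200 bp before the outermost start of each gene are shown because no peak was called there. All are from the hg19 reference, 5′ to 3′. The region is chr6:31536377-31536577 on the plus strand, centred on the median of the 4 summits. The stretch before LTA is chr6:31539631-31539830, the one before TNF is chr6:31543142-31543341 and the one before LST1 is chr6:31553701-31553900, all on the plus strand. The stretch before LTB is chr6:31550300-31550499 on the minus strand. Capitals mark matches on either strand to a list of motifs described with the matches.
region upstream of LTA: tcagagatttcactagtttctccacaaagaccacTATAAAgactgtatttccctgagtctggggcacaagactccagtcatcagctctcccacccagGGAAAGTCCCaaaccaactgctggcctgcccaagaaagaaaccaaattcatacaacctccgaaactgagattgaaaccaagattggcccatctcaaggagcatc
upstream of LTA: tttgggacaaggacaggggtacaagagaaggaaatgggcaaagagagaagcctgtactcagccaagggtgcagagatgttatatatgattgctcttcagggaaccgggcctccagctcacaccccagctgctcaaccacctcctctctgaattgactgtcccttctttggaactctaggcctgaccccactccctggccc
upstream of TNF: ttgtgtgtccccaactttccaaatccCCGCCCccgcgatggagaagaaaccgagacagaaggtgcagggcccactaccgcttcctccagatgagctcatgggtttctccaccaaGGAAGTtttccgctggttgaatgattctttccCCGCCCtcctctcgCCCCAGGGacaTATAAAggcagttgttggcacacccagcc
upstream of LTB: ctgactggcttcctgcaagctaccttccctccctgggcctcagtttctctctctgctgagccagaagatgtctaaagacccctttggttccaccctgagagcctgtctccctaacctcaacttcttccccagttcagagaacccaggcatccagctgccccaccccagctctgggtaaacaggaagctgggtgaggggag
upstream of LST1: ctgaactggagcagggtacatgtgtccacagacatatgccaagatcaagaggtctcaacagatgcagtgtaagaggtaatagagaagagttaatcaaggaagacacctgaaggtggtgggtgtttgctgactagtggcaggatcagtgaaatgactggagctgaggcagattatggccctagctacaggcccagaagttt

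Motifs were searched as exact letters on both strands: TGANTCA for AP-1, TGACGTCA for CRE, GGAAGT for ETS factors, GAGGAAGT for PU.1 (which also holds the ETS letters), TGTGGT for RUNX, ATGCAAAT for the octamer, CCCNNGGG for EBF, GGGCGG for the GC box and TATAAA for the TATA box. The NF-kB and IRF motifs were searched by their usual consensus. The region upstream of LTA held a match to the NF-kB motif on the minus strand, at 31536474 to 31536483, and a TATAAA at bases 35 to 40 of the printed stretch. Windows of the same length held an NF-kB match in 8.35% of 56446 regions and a TATAAA in 9.28%. The NF-kB match covered the median summit, at 31536477, which was so in 283 of the 56446 regions (0.501%). The summit lay inside the match in old buffer replicate 2, 1 bp from it in old buffer replicate 1, and 27 bp and 70 bp from it in unpurified new buffer replicates 1 and 2. The overlap of match and summit was looked at after the match had been seen. Binding was not measured, and a match is a description of the letters.

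The stretch before TNF held 5 matches, and the stretches before LTA, LTB and LST1 held none. Each stretch ended at the outermost start of its gene. The coding starts of LTB, 31550201 to 31550204, lie further inside the gene, so the bases directly before them were not searched. Bases before the inner coding starts of LTA, TNF and LST1 were likewise not all searched. TNF had a TATAAA whose first base lay 29 bp before the start (8.12% of 20140 upstream stretches of coding genes held one), an EBF match at 40 bp (15.0%), an ETS match at 86 bp (16.8%) and GC boxes in reverse orientation at 54 and 174 bp (46.5% held at least 1). No exact NF-kB match lay within these 200 bp of any of the 4 genes, and 4.55% of all upstream stretches held one. Exact letters miss sites that differ from them by a base. The stretch before TNF holds such a near match to the NF-kB letters, gggtttctcc. The lack of an exact match thus does not show that a start lacks an element of that kind.

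The lists give no read totals, but the fold enrichment and p value of a MACS2 peak together fix the number of reads covering its summit and the local background, in reads, and these were solved for every peak. The region upstream of LTA was covered by 17 and 15 reads at the summit in old buffer replicates 1 and 2 and by 15 and 13 reads in unpurified new buffer replicates 1 and 2. The local background was 2.64, 2.24, 2.42 and 1.86 reads in the same order. The 4 libraries that called the region were close to each other, and the protocols met at 15 reads.

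The fold enrichment, which is the summit over the local background with 1 read added to each, was 4.95 and 4.94 with the old buffer and 4.68 and 4.90 with the unpurified new buffer (mean 4.86 ± 0.126, SD, n = 4). The −log10 q was 6.66, 5.97, 5.62 and 5.35. Both unpurified libraries were below both old-buffer libraries in fold enrichment and in −log10 q, but the difference was small beside its error. In a limma fit of these 4 libraries over the 22543 regions that all 4 called, the region upstream of LTA differed by -0.01 ± 0.18 (SE) on the log2 scale, unpurified new minus old, relative to the median region of each library (95% interval -0.39 to 0.37, adjusted p of 0.997). In that fit 1 region of the 22543 (0.00444%) passed an adjusted p of 0.05. The fit was added after the data were seen.

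The summits lay at 31536473 and 31536481 with the old buffer and at 31536447 and 31536553 with the unpurified new buffer. They spanned 106 bp, and the pair from the old buffer differed by less than the pair from the unpurified new buffer. The median summit was 3354 bp upstream of the start of LTA and 6865 bp upstream of the start of TNF. The peaks were 382, 227, 286 and 282 bp wide.

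Ranked by −log10 q, the peak was number 26909 of 37654 and 26453 of 34826 in old buffer replicates 1 and 2, and number 29719 of 36252 and 28565 of 34438 in unpurified new buffer replicates 1 and 2. It was thus stronger than 28.5%, 24.0%, 18.0% and 17.1% of the peaks of its own library (mean 21.9 ± 5.39%, SD, n = 4). In every library that called it the peak stood in the weaker part of the list. The median peak of the 6 libraries had 20 to 22 reads at its summit, above all 4 values here.

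**Figure D1:**
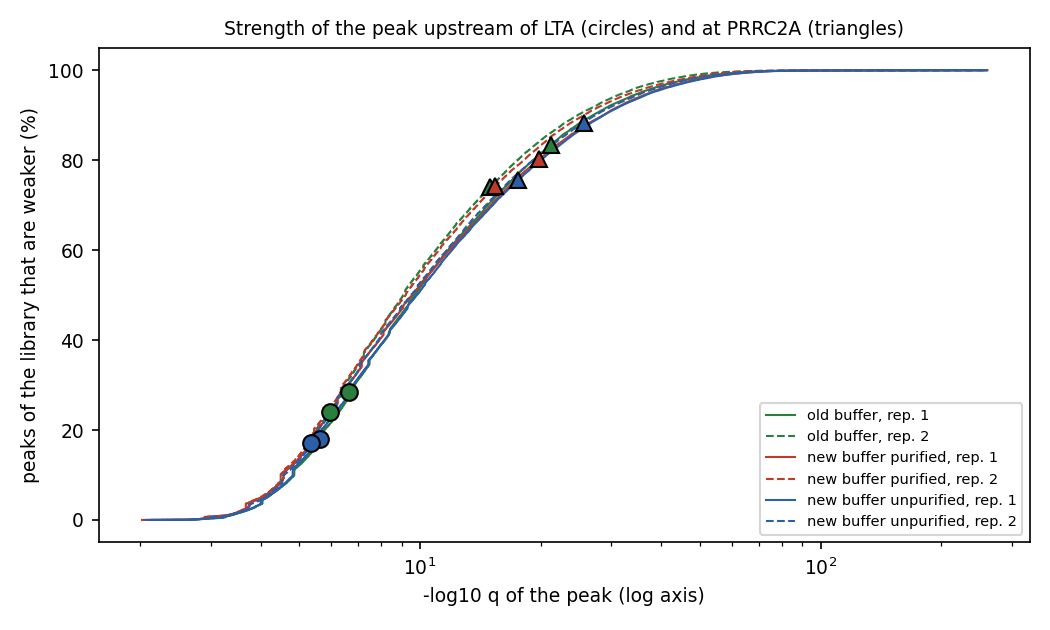
Share of the peaks of each library (%) that are weaker than a given −log10 q (log axis), with 1 line for each of the 6 libraries. Circles mark the peak upstream of LTA in the 4 libraries that called it, between 17.1% and 28.5%, and triangles mark the peak at the start of PRRC2A, between 74.1% and 88.4%.

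The call itself differed between protocols as 2 of 2, 0 of 2 and 2 of 2 libraries for the old buffer, the purified new buffer and the unpurified new buffer. Taking a call as 1 and no call as 0, the two-sided exact permutation test gave p = 0.333 for the purified new buffer against the old buffer and p = 0.333 for the unpurified against the purified new buffer, with 2 libraries on each side, which is the smallest p this design allows. For the old buffer and the new one without purification it gave p = 1 (exact permutation test). Across the genome, 356 of 56447 regions (0.631%) had the same pattern of calls. Regions called in exactly 4 libraries, in any combination, numbered 4367. With 2 libraries a side no pattern of calls could pass a threshold of 0.05, so these tests do not settle whether the protocols differ at the region. A library without the call has no value here, since the lists hold only peaks at a q of 0.01 or less, so an absent call sets no lower limit on how the reads differed.

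Depth differed little between libraries. The lowest local background of a library, which scales with its reads, was 1.16 and 1.01 times that of the shallowest library with the old buffer, 1.05 and 1.00 times with the purified new buffer and 1.17 and 1.24 times with the unpurified new buffer. Purified new buffer replicate 1 did not call the region. It was deeper than old buffer replicate 2, which did, and shallower than the other libraries that called it. Purified new buffer replicate 2, also without the call, was the shallowest library and listed 30136 peaks, against 34438 to 38023 in the others. The part of depth in the calls was not tested. Where the background was lowest, the weakest listed peaks had 8 to 10 reads at the summit, and the region upstream of LTA had 13 to 17 reads on backgrounds of 1 to 1.51 times the lowest.

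**Figure D2:**
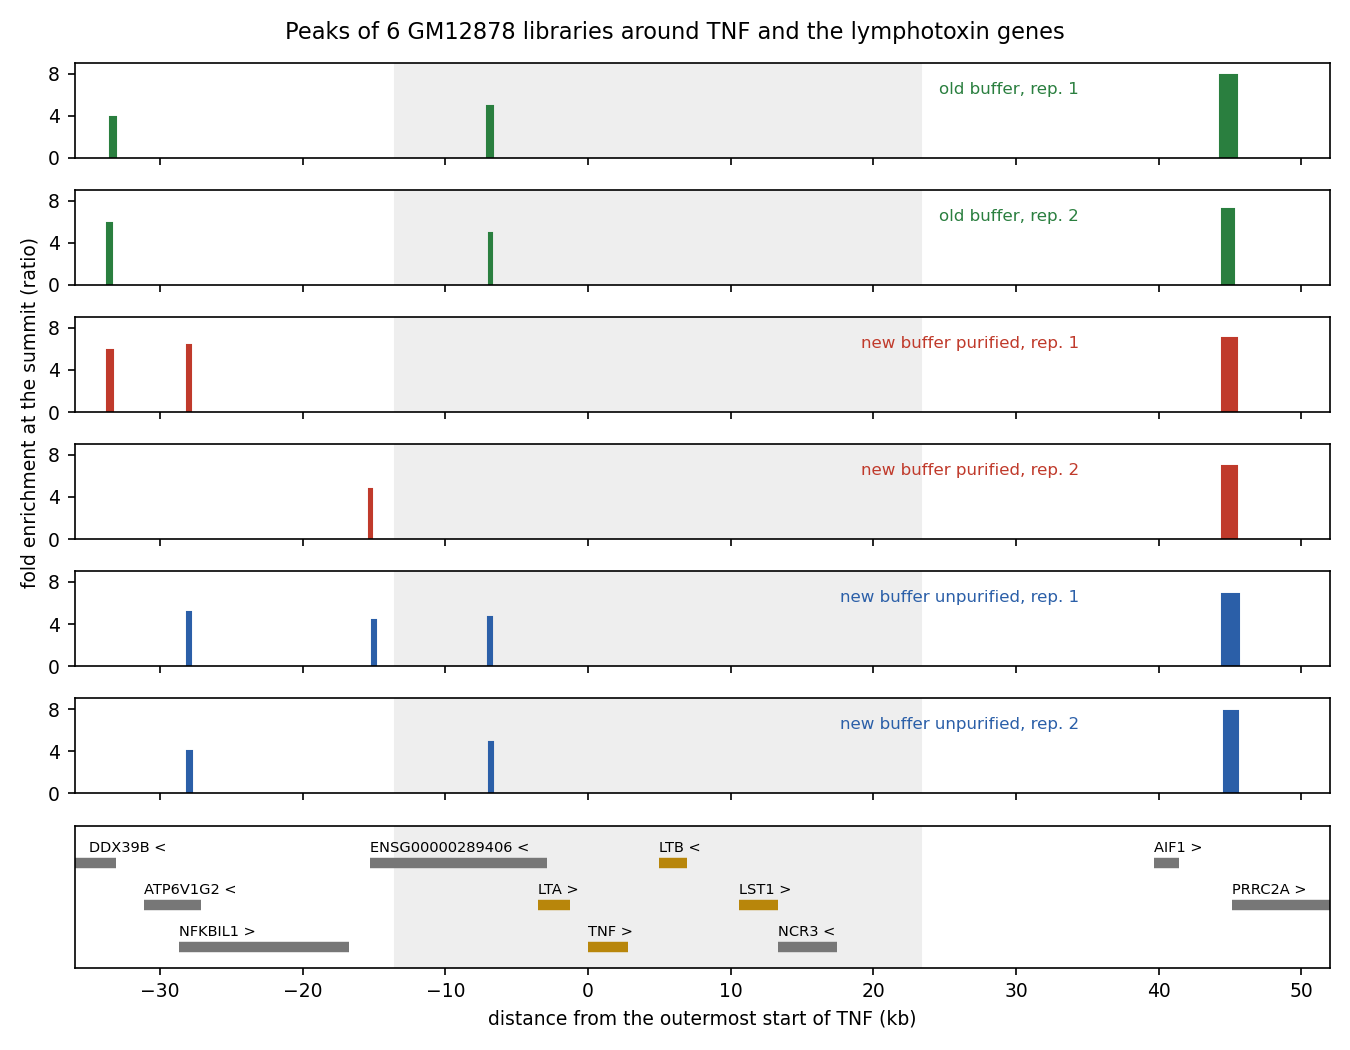
Peaks of the 6 libraries against the distance from the outermost start of TNF (kb), with bar height the fold enrichment at the summit (a ratio), bar width the peak and the search window in grey. Gene bodies are drawn at the bottom (> plus strand, < minus strand, the 4 genes in ochre), and the only peaks in the grey window are those at about 6.9 kb before TNF in the 4 libraries made with the old buffer or without purification.

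Each of the 4 genes could be placed by its nearest peak. The start of LTA was nearest to a peak, at 3.12 to 3.25 kb in the 4 libraries that called the region, and 24.3 and 11.6 kb in purified new buffer replicates 1 and 2. The start of TNF lay 6.63 to 6.76 kb from a peak in the 4 libraries, and 27.8 and 15.1 kb in the purified ones. For both genes these peaks were upstream. The start of LTB lay 13.6 to 13.7 kb from the same peak, which is downstream of it because LTB is on the minus strand, and 34.8 and 22.1 kb from a peak in the purified libraries. The start of LST1 lay 17.2 to 17.3 kb from it in the 4 libraries, and 33.9 and 25.7 kb from a peak in the purified ones.

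Within 10 kb of its body, LTA and TNF thus had 1 region each, which was the same region, and LTB and LST1 had none. The median coding gene had 2 regions within 10 kb, of which 1 was called in all 6 libraries, and 21.0% of 20163 coding genes had none. None of the 4 genes had a region called in all 6 libraries within 10 kb, which was so for 39.2% of coding genes.

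None of the 4 genes had a peak within 1 kb of an annotated coding transcript start in any library. LST1 has 14 such starts, from 31553901 to 31555446, and LTA, TNF and LTB have 2 each. Of 19821 coding genes, 39.4% had no peak within 1 kb of a start in any library and 45.6% had one in all 6, so a gene without a peak at its start was common in these lists. The 4 starts lie close together and are not independent of each other.

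All 4 starts had a low content of CpG. Within 500 bp on each side of the outermost start, the observed over expected CpG ratio was 0.264 for LTA, 0.339 for TNF, 0.132 for LTB and 0.0885 for LST1, against a median of 0.687 over 19802 coding genes. With genes split into 3 groups of equal size by this ratio, all 4 were in the lowest. In that group 72.2% of genes had no peak within 1 kb of a start in any library and 16.5% had one in all 6. In the middle group these shares were 29.3% and 52.4%, and in the highest 16.4% and 68.0%. The CpG ratio was added after the calls at the 4 starts had been seen, and its part in these calls was not tested.

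The 4 genes lay in a stretch with no peak in any of the 6 libraries, from 31536708 to 31587670. It was 51.0 kb long and held 6 coding genes, which were LTA, TNF, LTB, LST1, NCR3 and AIF1, the last encoding a calcium-binding protein of macrophages. The median distance between neighbouring regions was 22.9 kb, and 71.6% of 56423 such gaps were shorter than this one. Gaps of at least this length numbered 16028, whereas gaps with at least 6 coding genes numbered 106 (0.188%). The stretch was picked because it holds the 4 genes, and the share is over all gaps, of any length or gene content. It is thus not a measure of how unusual the locus is. Counted by gene, 30.7% of 20163 coding genes had no region in the body.

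On the left the nearest region outside the window, chr6:31527967-31528468, lay 1363 bp beyond it at the 3′ end of ENSG00000289406, over an exon, and was called in 2 libraries. It had 13 reads at the summit in purified new buffer replicate 2 and 14 in unpurified new buffer replicate 1, with fold enrichments of 4.76 and 4.39. It was called in 1 replicate of 2 protocols and so followed no protocol. Next to it, chr6:31515197-31515539 overlapped an exon of NFKBIL1, a regulator of NF-kB signalling related in sequence to the IkB proteins. It also lay within 1 kb of a coding start of ATP6V1G2, which encodes a subunit of the vacuolar proton pump. It was called in purified new buffer replicate 1 with 18 reads and in unpurified new buffer replicates 1 and 2 with 17 and 14 reads. The region at the start of DDX39B, an RNA helicase of mRNA export, chr6:31509583-31510205, was called with the old buffer in both replicates with 14 and 19 reads and in purified new buffer replicate 1 with 20 reads.

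On the right the stretch ended at the start of PRRC2A, a gene for an RNA-binding protein, at chr6:31587671-31588978. This region was called in all 6 libraries, with 38 and 28 reads at the summit for the old buffer, 39 and 30 reads for the purified new buffer and 35 and 47 reads for the unpurified new buffer. Its fold enrichment ran from 6.84 to 7.84, and 74.1% to 88.4% of the peaks of each library were weaker. The protocols overlapped in reads at PRRC2A. On the log2 scale its fold enrichment differed by -0.09 ± 0.18 (SE) between the purified new buffer and the old buffer, with an adjusted p of 0.966 in limma over all regions called in all 6 libraries.

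**Figure D3:**
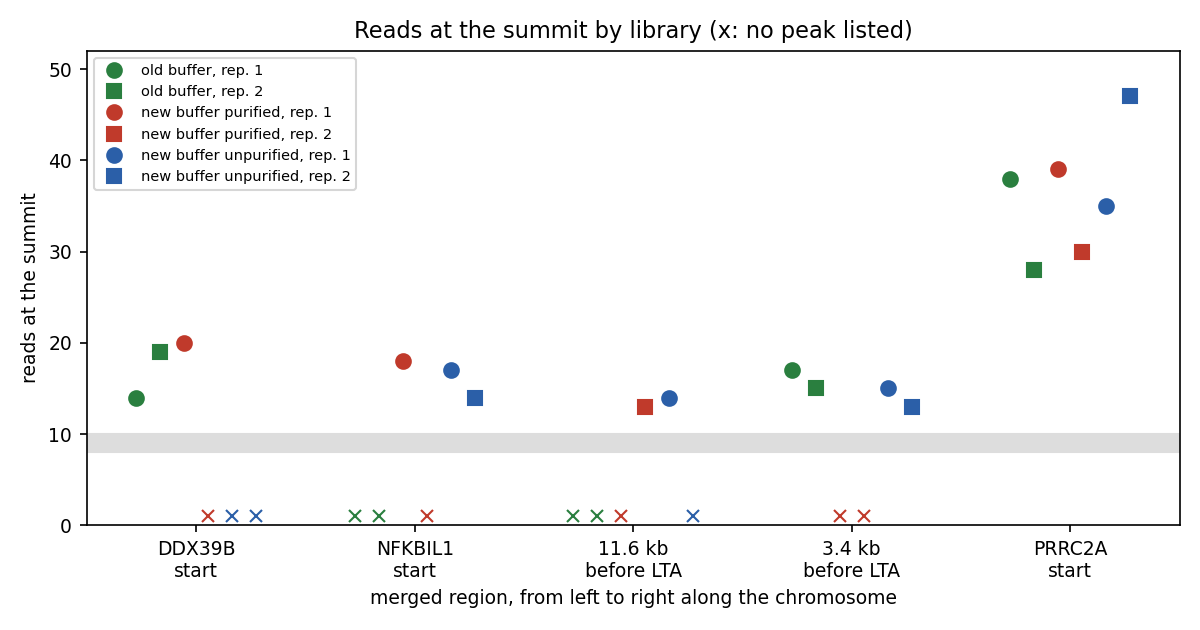
Reads covering the summit in each library for the region upstream of LTA (3.4 kb before it) and the 4 nearest regions outside the window, in order along the chromosome, with crosses at the bottom where a library lists no peak. The grey band, 8 to 10 reads, spans the fewest reads of any listed peak where the local background is lowest, and only the PRRC2A start, at 28 to 47 reads, was called in all 6 libraries.

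For the comparison of all 3 protocols in 1 fit, the strength of regions was taken where all 6 libraries list a value. Over these 20064 regions limma found 0 regions (0%) past an adjusted p of 0.05 in each of the 3 comparisons, while 1376, 1309 and 961 passed an unadjusted p of 0.05 for purified new against old buffer, unpurified new against old buffer and unpurified against purified new buffer. The smallest adjusted p values were 0.327, 0.668 and 1. No region of the TNF and lymphotoxin window could enter this fit. In a simulation of the first comparison on the same 20064 regions, 95 of 100 regions changed by 1 on the log2 scale and 100 of 100 changed by 2 were recovered, with 7 false calls among the other regions. The simulated noise was normal, independent and of 1 SD for all regions. Real regions can differ in spread, so the recovery is not the power of the fit to the real values.

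Other genes of the pathway were read by role. Of 29 genes of TNF and lymphotoxin signalling, 22 had a peak within 1 kb of a start in all 6 libraries, 4 in some and 3 in none, beside 45.6% and 39.4% of all coding genes in all and in none. The share called in all 6 ran from 16.5% to 68.0% between the lowest and highest CpG groups. These 29 genes were not matched to others by CpG. Among 4 receptor genes, TNFRSF14, which binds lymphotoxin alpha and LIGHT, was called in all 6 libraries with 21 to 33 reads at the summit. TNFRSF1B, the TNF receptor found mainly on immune cells, was called in 4 libraries with 14 to 19 reads. TNFRSF1A, the widely expressed TNF receptor, and LTBR, the lymphotoxin beta receptor, which lymphocytes are known to lack, were called in none.

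Among 12 adaptors and kinases, 9 were called in all 6 libraries and 3 in some, which were TRADD, the adaptor that binds the death domain of TNFRSF1A, in 5, TRAF3, an inhibitor of the non-canonical NF-kB pathway, in 5 and CHUK, a kinase subunit of the IkB kinase complex, in 4. BIRC3, a ubiquitin ligase of the receptor complex, had the most reads of this group with 89 to 120 at the summit. MAP3K14, the NF-kB-inducing kinase through which the lymphotoxin beta receptor signals, had 29 to 53 reads.

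All 5 NF-kB subunit genes were called in all 6 libraries. The median reads at the summit were 43 for NFKB1, 41.5 for NFKB2, 23 for RELA, 32.5 for RELB and 48.5 for REL. All 6 feedback inhibitors were called in all 6 libraries as well. CYLD, a deubiquitinase that restrains NF-kB signalling, had 77 to 110 reads at the summit, ranked between 38 and 549 in its libraries. NFKBIA, which encodes IkB alpha, had 50 to 68 reads, and TNFAIP3, which encodes the ubiquitin-editing enzyme A20, had 34 to 60. ADAM17, the protease that releases TNF from the membrane, was called in all 6 libraries with 36 to 61 reads, and TIMP3, an inhibitor of that protease, in none.

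**Figure D4:**
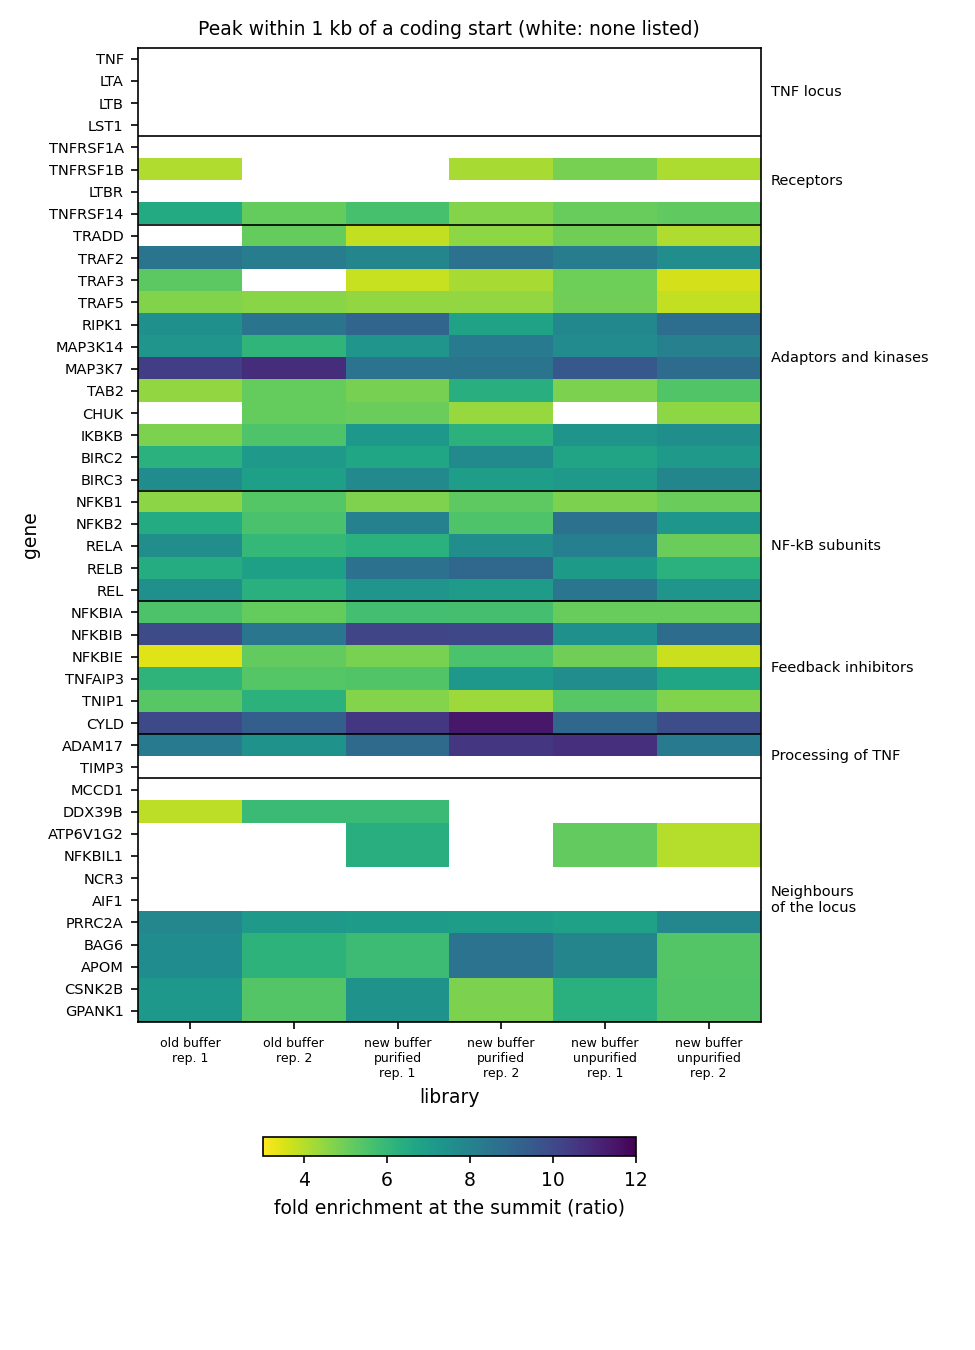
Fold enrichment at the summit (a ratio, colour) of the strongest peak within 1 kb of a coding start for the 4 genes of the locus, 29 genes of TNF and lymphotoxin signalling and 11 neighbours, by library, with white where no peak is listed. The rows of TNF, LTA, LTB and LST1 are white in all 6 libraries, and those of the NF-kB subunits and feedback inhibitors are filled in all 6.

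The other genes around the locus were mixed. Of 11 neighbours in MHC class III, 5 were called in all 6 libraries, which were PRRC2A, BAG6, APOM, CSNK2B and GPANK1, and DDX39B, ATP6V1G2 and NFKBIL1 were called in 3 each. MCCD1, NCR3 and AIF1 were called in none. These shares are close to or below those over all coding genes, of which 45.6% were called in all 6 libraries and 39.4% in none. The 27 genes called in all 6 libraries, neighbours included, came to 25 distinct regions. None of the 25 passed an adjusted p of 0.05 in limma in any of the 3 comparisons. Medians were taken over the 27 genes, so a region shared by 2 genes counted for each. The median difference in log2 fold enrichment was 0.05 for the purified new buffer against the old buffer, beside 0.0029 over all regions. The smallest adjusted p of that comparison was 0.696 in limma. The median was -0.0078 for unpurified new against old buffer, beside -0.0012, and -0.0043 for the unpurified against the purified new buffer, beside -6e-04. IKBKB, the other kinase subunit of the IkB kinase complex, differed most, by 0.56 ± 0.18 (SE) on the log2 scale for unpurified new minus old buffer, and did not pass the test (limma adjusted p of 0.668).

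Markers of the cells were read in the same way. Among B cell genes, MS4A1, which encodes CD20, and EBF1, a B lineage transcription factor, had a peak at a start in all 6 libraries. CD79A was called in 4, CD22 in 3 and CD79B and PAX5 in 1 each, and BLK in none. Of 17 markers of T, natural killer, myeloid and erythroid cells, 14 were called in no library, CD14 in 4, and CD8A and TCF7, both T cell genes, in all 6. Calls in all 6 libraries thus covered 2 of the B cell genes named here and 2 T cell genes. Of all coding genes, 45.6% had a peak within 1 kb of a start in all 6 libraries and 39.4% in none. A peak at a start is not a measure of expression, and the cell line is as labelled.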

How the data were processed

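Peak lists of 6 GM12878 libraries were analysed, with protocol and replicate number from the labels and the meaning of the protocol from the study's methods and a supplementary legend, which gives the purification. The authors trimmed reads, mapped them to hg19 with Bowtie2 2.1.0, kept proper pairs of high mapping quality, discarded mitochondrial reads and, with Picard 1.79, duplicates, and called peaks in narrow mode with MACS2 (version not given in the sources used here) at a q value of 0.01. The methods speak of reads merged by condition, whereas each library here has its own list. Whether the index held alternate MHC haplotypes is not given in the sources used here. Reads of low mapping quality were removed, and the part of this in the calls at the locus was not tested. The deposited values are a score, a fold enrichment (a ratio), a −log10 p and a −log10 q for each peak.

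Reads and local background at each summit were solved from the deposited fold enrichment and −log10 p, exactly within 0.001 in −log10 p for 100% of peaks. Peaks that overlapped or adjoined were merged into 56447 regions. Intervals of genes and starts came from GENCODE lifted to GRCh37, the same build as hg19. Log2 fold enrichments, centred on the median of each library, were compared with limma 3.58.1 over the regions called in all 6 libraries, and for old against unpurified new buffer also over those called in these 4, after a test on simulated data, with Benjamini-Hochberg adjustment over all of them. Calls were compared by two-sided exact permutation tests over libraries. Genes with a pattern most like a member's were not sought, because no member had a peak at a start. Replicate numbers did not pair the libraries. The genes, lists, motifs and tests were chosen with earlier results of these data known. The named genes were the 4 members, the neighbours in the window, the nearest region on each side, and examples from the lists. The counts by list cover every listed gene, except that 1 B cell marker is not reported here. Merged regions were also computed with bedtools 2.31.1 as a check. The analysis used Python 3.11.15, pandas 2.3.3, SciPy 1.17.1 and R 4.3.3.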

Additional observations from a re-analysis of the deposited data

How the results depend on the processing

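The number of regions at the locus was 1 with the genes widened by 5 or 10 kb, 0 with gene bodies only, where by construction 0 libraries call the region upstream of LTA, and 2 with the genes widened by 20 kb. With each library left out in turn the locus held 1 to 1 region, called in 3 to 4 libraries, and 0 to 0 regions called in all libraries. Ranked by fold enrichment in place of −log10 q, the peak upstream of LTA was stronger than a mean of 27.9% of the peaks of its library. Within 5 kb of a start, a window added after the data were seen, 1 of the 4 genes (LTA) had a peak. With an intensity trend in limma, 1 region was lower with the purified new buffer and 1 with the unpurified new buffer than with the old buffer, and the locus had no region in the fit. With only the libraries of the old and the unpurified new buffer, added after the data were seen, 1 region was lower with the unpurified new buffer, and it was not the region upstream of LTA. All other fits, those with the replicate block (0 calls in each comparison) and those leaving out a library (0 to 0) included, made 0 calls. Same-numbered libraries correlated by 0.013, -0.0008 and 0.0149, so the numbers were not taken as pairs. The lists hold no value for sites that were not called, and the median summit had 20 to 22 reads, so accessibility at the starts may have been missed. The part of depth and of mapping-quality filtering in this was not tested. An absent peak does not show closed chromatin.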
